A study of Rattus norvegicus with 150 samples.

Results

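The 100 genes described here were chosen by their counts as low in rat muscle that had held tantalum for 12 months and higher in the other muscles set beside it. Tantalum (Ta) is the sham metal of the study. Levels are log2(CPM + 1), where CPM is the usual depth-scaled count, a gene's share of its library's total count. A gene had to have a higher mean in Ta at 1, 3 and 6 months than in Ta at 12 months, which 4702 of the 32545 genes in the table had. Its score was the lowest of 3 differences at 12 months, those of cobalt (Co), of the metal labelled P and of depleted uranium (DU) from Ta, and the 100 highest scores were taken. All differences between these 7 groups that follow from this rule are therefore descriptions, with no test. The scores ran from 0.58 to 1.22 on the log2 scale, with a median of 0.68. Ranks 96 to 100 scored 0.58 each, and the 5 genes just below the limit scored 0.57 each, so the list ends within a continuous range of scores.

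The libraries came from gastrocnemius, the main calf muscle, of male Sprague-Dawley rats bought at an age of about 30 days. After at least 2 weeks each rat received 4 metal cylinders by surgery, with 2 per limb, of 1 mm in width and 2 mm in length. Groups were set by the metal and by the months from surgery: Ta, Co, P and DU had 4 times (1, 3, 6 and 12 months) and nickel (Ni) the first 3, so Ni could not be compared at 12 months. The design text names lead among the sequenced metals, but the sample labels give only P, which is kept. All groups had an implant, so no muscle without metal served as a control, and the rats aged with the months of implantation. There were 150 libraries in 19 groups, 17 of 8 and 2 of 7 (Ta at 1 month and Co at 6 months), with total counts from 12674115 to 21921859 (median 15778710). Which rat gave which library is not labelled, and p-values cover only library-to-library spread. Genes are given by Ensembl identifier because the reference table pairs none of them with a name. Function, cell type, chromosome and promoter of the 100 genes were therefore not examined, and the labelled tissue was not checked against muscle markers. The median correlation of a library with the others of its group was under 0.9 in 10 libraries. The lowest was DU replicate 2 of 3 months (0.489). Co at 3 months had 5 (replicates 2, 8, 6, 5 and 7, at 0.81, 0.846, 0.862, 0.889 and 0.895) and Co at 1 month had 2 (replicates 3 and 1, at 0.835 and 0.89). The others were DU replicate 6 of 12 months (0.831) and Co replicate 1 of 6 months (0.866), in which 47.7% of counts came from 10 genes. Values without these last 2 or DU replicate 2 were added after seeing the data.

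A metal piece left in muscle meets wound repair first and then a lasting foreign body reaction, in which macrophages and fibroblasts wall it off. Tantalum is widely used as an inert implant metal, whereas cobalt and nickel release ions that tissue responds to, and depleted uranium and lead are toxic heavy metals. A sham implant followed over time shows how muscle changes with healing and with age, and each other metal at the same time shows what is added to that.

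The mean level over the 100 genes was 2.14 ± 0.27 in Ta at 12 months (SD, n = 8). Earlier Ta groups had 2.90 ± 0.32 (1 month; SD, n = 7), 2.87 ± 0.71 (3 months; SD, n = 8) and 2.86 ± 0.42 (6 months; SD, n = 8). At 12 months it was 2.95 ± 0.69 with Co, 3.14 ± 0.45 with P and 3.19 ± 0.57 with DU (SD, n = 8 each). Without DU replicate 6 the DU mean was 3.05 ± 0.42 (SD, n = 7). The 8 Ta libraries of 12 months lay between 1.58 and 2.48. Those of Co lay between 2.24 and 4.42, those of P between 2.41 and 3.73 and those of DU between 2.39 and 4.21. In 6 Co, 7 P and 6 DU libraries the mean was above every Ta library, and the remaining 2, 1 and 2 overlapped with them. The mean over the 14176 genes that reached 1 CPM in a group was 3.22 in Ta, 3.34 in Co, 3.29 in P and 3.43 in DU at 12 months.

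**Figure D1:**
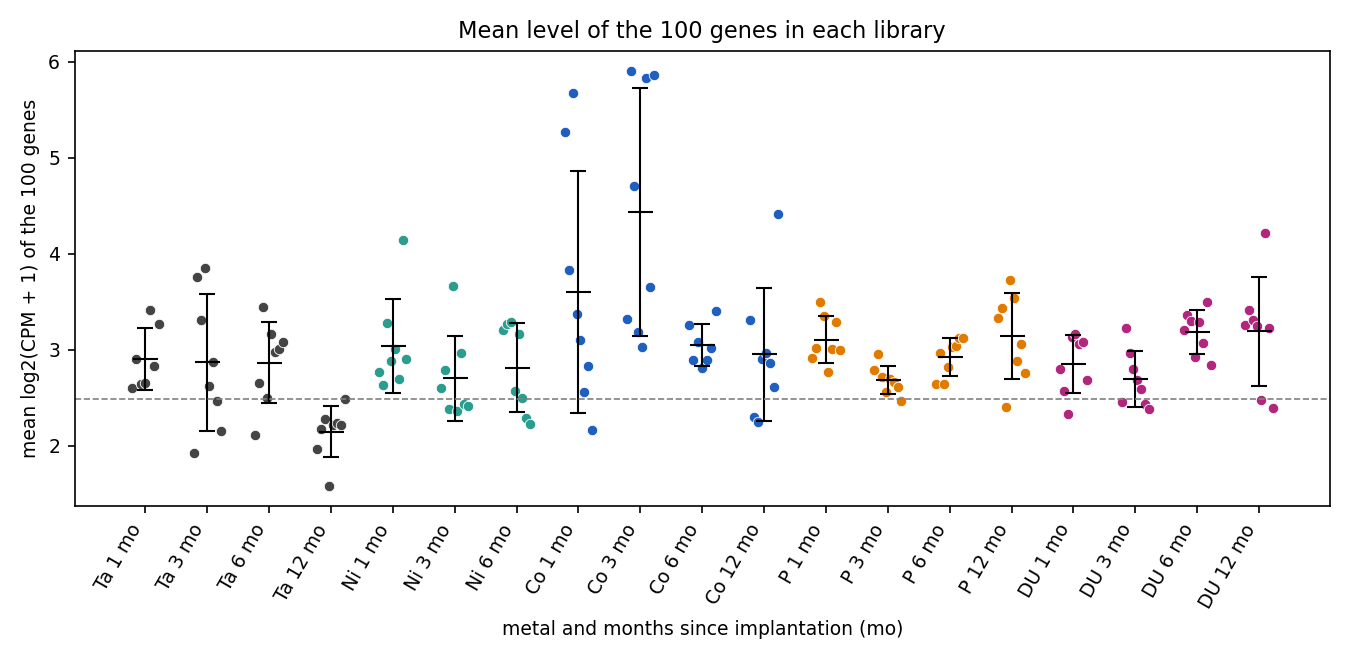
Mean log2(CPM + 1) of the 100 genes (vertical axis) in each of the 150 libraries (points) by metal and months since implantation, with the group mean and SD in black and the highest Ta library of 12 months, 2.48, as a dashed line. Ta at 12 months has the lowest group mean, 2.14, and 4 of the 8 Co libraries of 3 months lie between 4.70 and 5.90.

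In single genes the separation at 12 months was less clean than in the mean. Every P library was above every Ta library in 20 of the 100 genes, against 0.564% of the 14176 genes of at least 1 CPM. The same held in 1 of the 100 for DU (0.324% of all; 1 of the 100 and 0.374% without DU replicate 6) and in 0 for Co (0.0776% of all). Across time, every Ta library of 1 month was above every Ta library of 12 months in 18 of the 100 (2.29% of all). This held in 1 against Ta of 3 months (0.607% of all) and in 0 against Ta of 6 months (0.0635% of all). These shares are given only as descriptions, because the rule took genes from these same contrasts.

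The difference from Ta at 12 months had a median over the 100 genes of 0.75 with Co, 0.92 with P and 0.91 with DU. The median over all 14176 genes was 0.09, 0.03 and 0.20. Co gave the lowest of the 3 differences, and so the score, in 62 genes, P in 23 and DU in 15. Co differences reached 2.65, P differences 2.10 and DU differences 2.93, all on the log2 scale. The median fall from Ta at 1, 3 and 6 months to Ta at 12 months was 0.72, 0.69 and 0.69, with falls of single genes between 0.02 and 2.21.

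**Figure D2:**
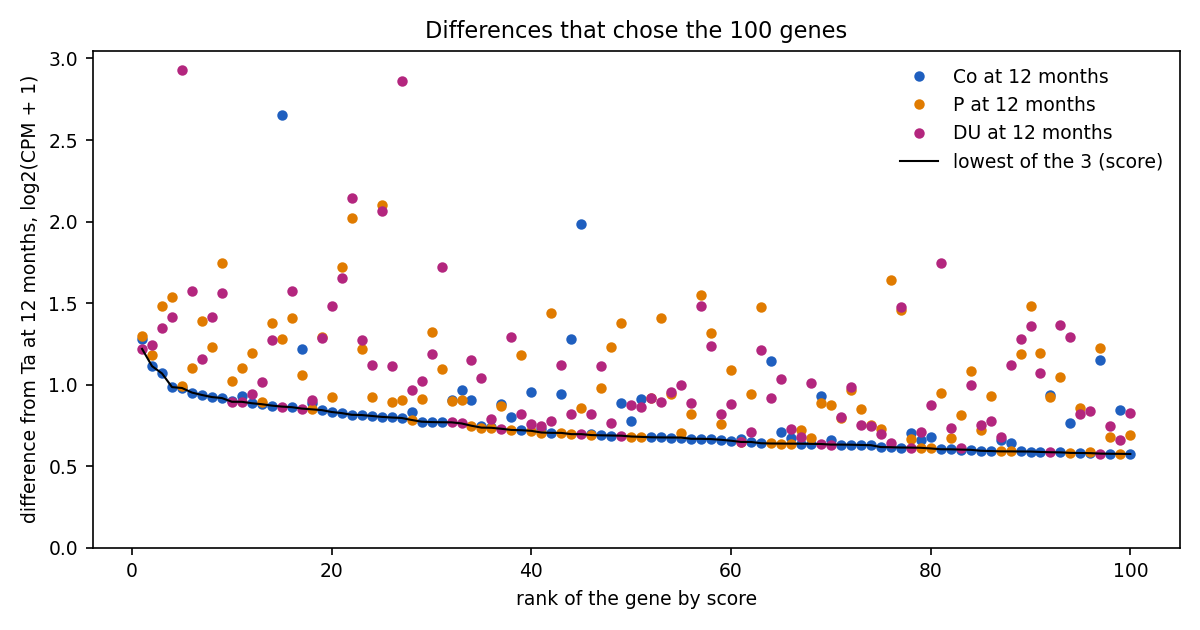
Difference of Co, P and DU from Ta at 12 months in log2(CPM + 1) (vertical axis) for the 100 genes by rank of score (horizontal axis), with the score as a black line. The score falls from 1.22 to 0.58 without a step after the highest few, and Co sets it in 62 genes.

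The list rested in part on single libraries. Co replicate 8 had a mean of 4.42 over the 100 genes, with the other 7 Co libraries of 12 months at 2.74 ± 0.38 (SD, n = 7), and it was the highest Co library in 81 of the 100 genes. Without it the median Co difference was 0.53 and all 100 genes were still above Ta, but 40 of them reached the lowest score of the list. When the rule was applied again without that library, 58 of the 100 genes were chosen. Without Ta replicate 3 of 12 months 62 were chosen. Leaving out any other of the 32 libraries of 12 months used by the rule kept 78 to 97. Of the 100 genes, 31 were chosen in all 32 of these repeats. DU replicate 6 was the highest DU library in 62 genes. Without it the median DU difference was 0.86, all 100 genes were above Ta and 87 reached the lowest score.

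**Figure D3:**
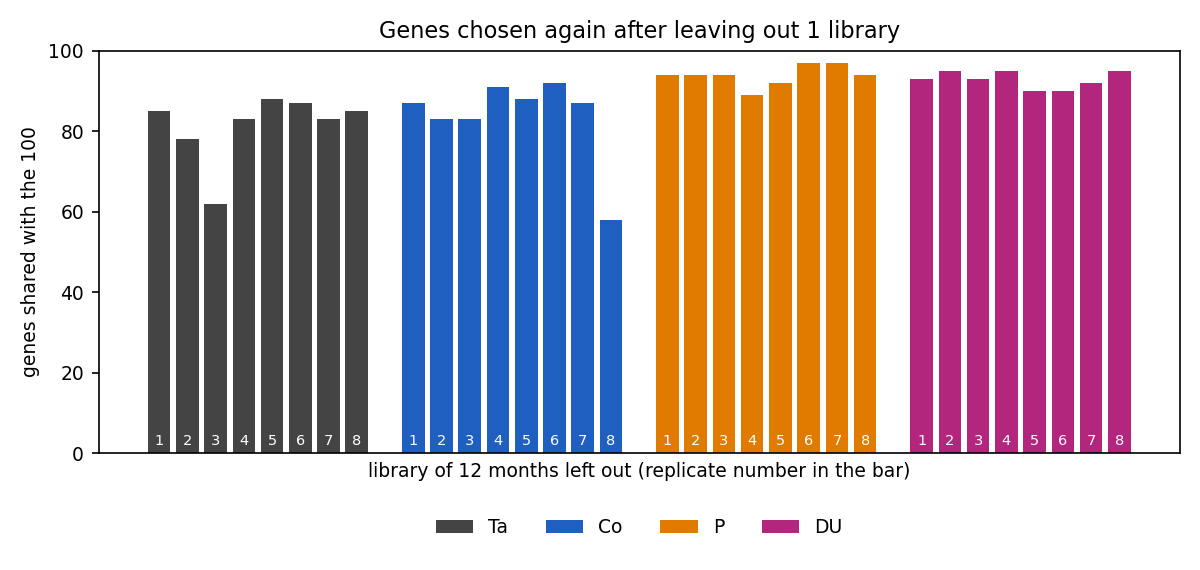
Number of the 100 genes chosen again (vertical axis, from 0) when the rule is applied without 1 library of 12 months, with bars grouped by metal and the replicate number in each bar. The 2 lowest bars are Co replicate 8 with 58 genes and Ta replicate 3 with 62.

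Other measures of the libraries are set beside these levels. Per library, 10929 to 11412 genes reached 1 CPM in Ta at 12 months, 11136 to 12275 in Co, 11042 to 11949 in P and 11324 to 12108 in DU. In Ta at 1 month they numbered 11445 to 11904, at 3 months 10984 to 12062 and at 6 months 10198 to 11767. Between 26.5% and 33.1% of a Ta library of 12 months came from its 10 most abundant genes, against 22.5% to 30.2% in Co, 28.6% to 34.6% in P and 20.2% to 33.0% in DU. The part of these measures in the result was not tested. In whole muscle, fewer cells of a type and less RNA per cell cannot be told apart.

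Most of the 100 genes were counted sparsely in Ta at 12 months. Of them 23 averaged under 1 CPM there, 56 from 1 to 10, 18 from 10 to 100 and 3 at least 100 CPM. The median was 2.30 CPM and the range 0.134 to 260 CPM, without adjustment for gene length. In the other groups between 0 and 9 of the 100 averaged under 1 CPM.

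ENSRNOG00000005825 had the highest score, 1.22. In Ta at 12 months it ran from 6.27 to 26.8 CPM with a median of 12.7. At that time it ran from 8.01 to 227 CPM with Co (median 24.7), from 16.7 to 58.8 CPM with P (median 32.5) and from 10.3 to 94.6 CPM with DU (median 33.7). All 8 P libraries, 7 Co and 6 DU libraries were above the Ta median, and the ranges of each metal and Ta overlapped. Its earlier Ta medians were 22.9 CPM at 1 month, 27.0 CPM at 3 months and 34.8 CPM at 6 months, with 1 library of 3 months at 528.5 CPM.

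ENSRNOG00000003622, next in score at 1.11, gave low values in Ta as well. Its medians at 12 months were 1.21 CPM in Ta (0.640 to 2.91), 2.68 in Co (0.951 to 25.6), 3.91 in P (2.28 to 8.42) and 5.51 in DU (1.00 to 13.0). P libraries were above every Ta library in 6 of 8, DU in 6 of 8 and Co in 4 of 8.

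**Figure D4:**
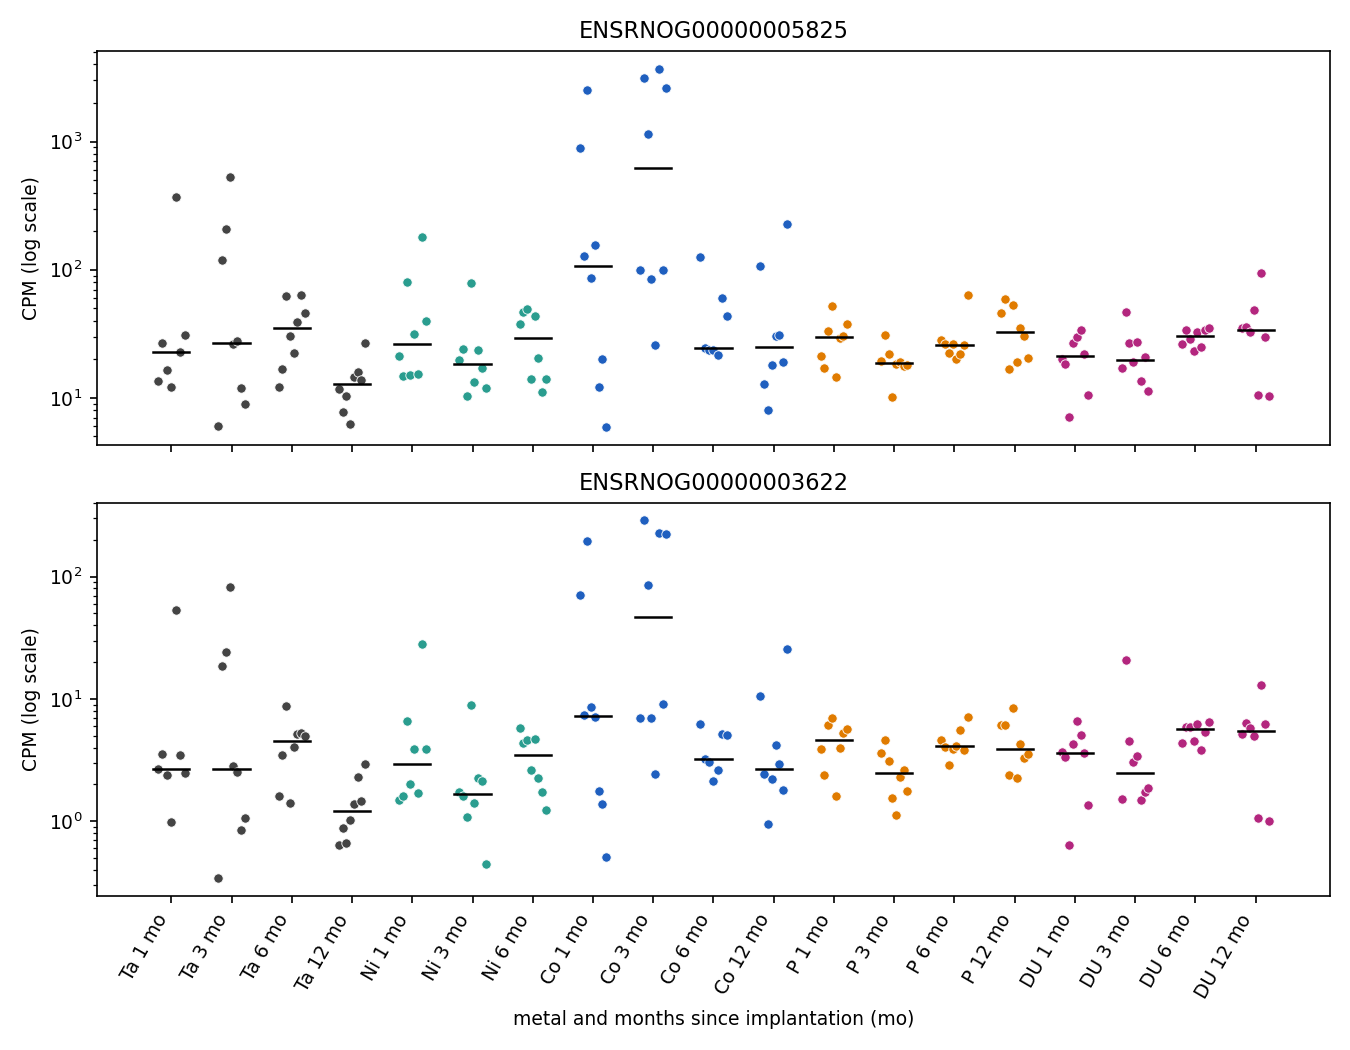
CPM on a log scale (vertical axes) of the 2 genes with the highest scores in each library, by metal and months since implantation, with the group median as a bar. In both genes Ta at 12 months has the lowest group median, 12.7 and 1.21 CPM, and Co at 3 months has the highest, 624.3 and 47.0 CPM.

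The genes with the largest differences at 12 months were looked at one by one. ENSRNOG00000030848, the gene with the largest Co difference, ran from 2.74 to 155 CPM with Co (median 62.7) and from 0 to 90.0 CPM with Ta (median 11.15), and 2 of 8 Co libraries were above every Ta library. ENSRNOG00000043098, the gene with the largest DU difference, had a DU median of 13.1 CPM but a DU replicate 6 at 12600 CPM, so that its mean was 1628 ± 4436 CPM (SD, n = 8), against 2.39 to 8.27 CPM in Ta. ENSRNOG00000025764 likewise reached 3739 CPM in DU replicate 6, with a DU median of 5.71 CPM and Ta at 0.448 to 2.55 CPM. The 2 genes with the largest P differences were more even. ENSRNOG00000012471 ran from 12.2 to 105.5 CPM with P (median 30.6) and from 1.99 to 15.3 with Ta (median 7.33), with 7 of 8 P libraries above every Ta library. ENSRNOG00000004554 ran from 69.3 to 335 CPM with P (median 152.0) and from 14.9 to 80.6 with Ta (median 35.0), again with 7 of 8 above.

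The remaining groups played no part in the rule, but every comparison with Ta at 12 months rests on the low values the genes were chosen for, so the counts here are descriptions. In 90 of the 100 genes Ta at 12 months had the lowest mean of all 19 groups. Among the 2429 other genes of at least 1 CPM that met every sign of the rule with a smaller score, this was so in 59.2%, a difference that the choice of the largest scores favours. In the remaining 10 genes from 1 to 5 other groups were lower still. DU at 3 months was below Ta at 12 months in 6 genes (3 without DU replicate 2), DU at 1 month in 4, P at 3 months and Ni at 6 months in 3 each, and no gene was lower in Ni at 1 month or DU at 6 months. The group means next above Ta at 12 months, at 2.14, were P at 3 months, 2.68 ± 0.15, DU at 3 months, 2.69 ± 0.29 (2.62 ± 0.21 without replicate 2), and Ni at 3 months, 2.70 ± 0.45 (SD, n = 8 each), which lay within each other's spread. The highest group means were 4.43 ± 1.29 in Co at 3 months and 3.60 ± 1.26 in Co at 1 month (SD, n = 8 each).

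**Figure D5:**
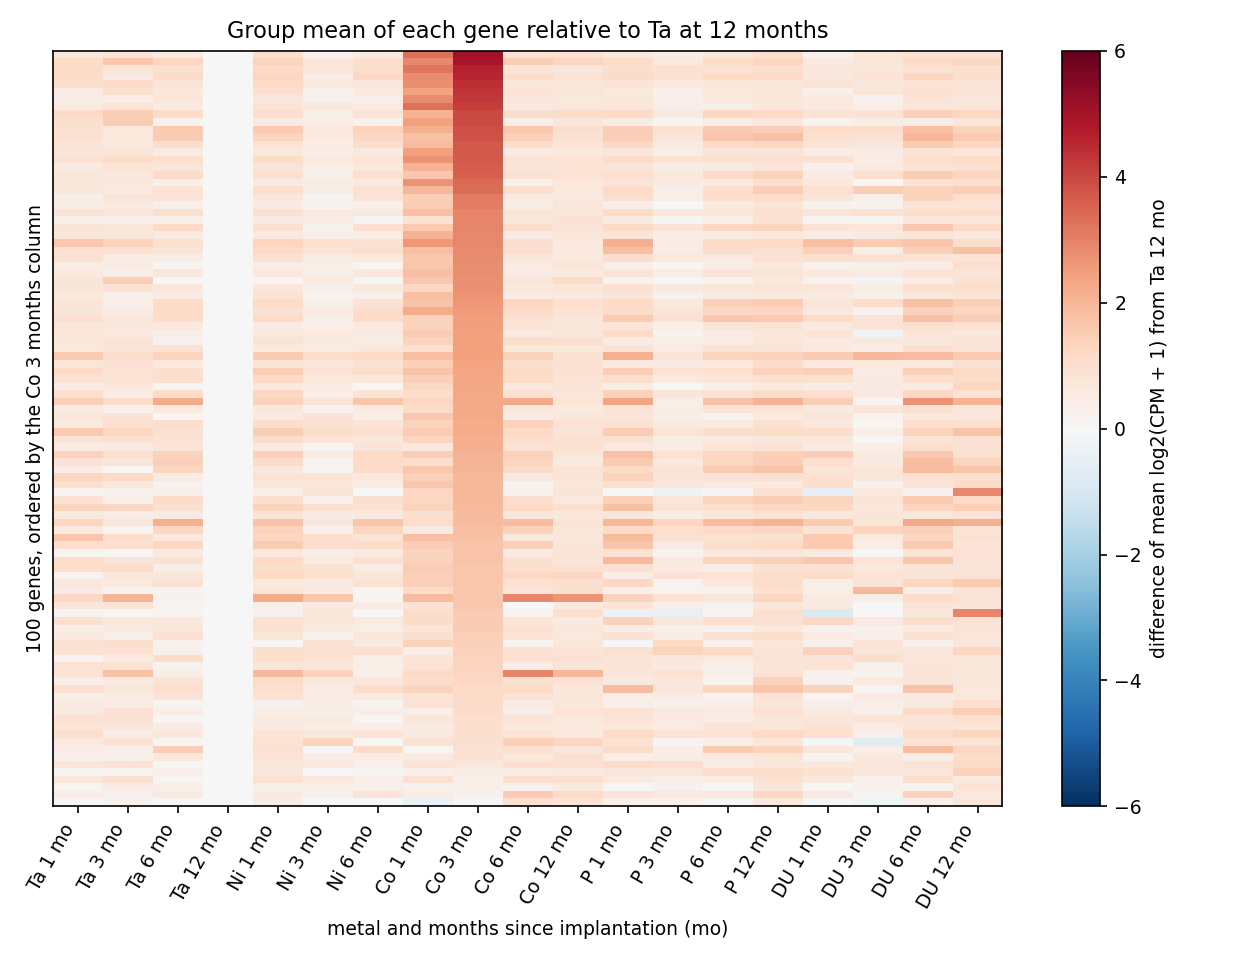
Group mean of log2(CPM + 1) of each of the 100 genes (rows, ordered by Co at 3 months) minus its mean in Ta at 12 months, for the 19 groups (columns), with red for higher and blue for lower. Co at 3 months is the darkest column, and few cells are blue, since Ta at 12 months is the lowest group in 90 genes.

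The Co libraries of the earlier times were not used to choose the genes. At 3 months 44 of the 99 genes tested were higher with Co than with Ta and 0 were lower (edgeR, adjusted p under 0.05), against 6.17% of all 12429 genes tested. The log2 fold changes of the 44 ran from 0.80 to 5.45. The difference in log2(CPM + 1) had a median of 1.48 over all 100 genes, with 93 above 0, and of 0.32 over the 14176 genes of at least 1 CPM. In the 44 genes the median level was 39.6 CPM with Co and 3.69 CPM with Ta at 3 months. Co at 3 months was the highest of all 19 groups in 68 of the 100 genes. How often it was the highest among all genes was not counted. Its mean level over the 14176 genes was 3.74, also the highest of the 19 groups, followed by Co at 1 month at 3.52.

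ENSRNOG00000000655 had the largest of these log2 fold changes. It ran from 2.43 to 839 CPM with Co at 3 months (median 179) and from 0.531 to 16.7 CPM with Ta (median 1.47). All 8 Co libraries were above the Ta median and 5 were above every Ta library, with a log2 change of 5.45 ± 1.12 (SE; edgeR, adjusted p = 0.013). ENSRNOG00000033215 ran from 7.36 to 684 CPM with Co (median 90.3) and from 1.30 to 12.7 CPM with Ta (median 4.29). Here 6 Co libraries were above every Ta library, with 4.97 ± 0.89 as log2 fold change ± SE (adjusted p = 0.0119, edgeR).

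The 8 Co libraries of 3 months were unequal. Replicates 2, 8, 6 and 3 had means of 5.90, 5.86, 5.83 and 4.70 over the 100 genes, with 76, 80, 81 and 60 of the genes above every Ta library of 3 months. Replicates 7, 1, 4 and 5 had means of 3.65, 3.32, 3.18 and 3.03, within the Ta range of 1.93 to 3.85, with 20, 15, 8 and 5 genes above every Ta library. How many of all genes were above every Ta library was not counted. In group means 79.7% of all genes were higher with Co than with Ta. From 12950 to 13814 genes reached 1 CPM in replicates 2, 8, 6 and 3. In replicates 7, 1, 4 and 5 they numbered 11720 to 12094. Their 10 most abundant genes held 15.5% to 22.5% of counts in the former and 25.8% to 31.2% in the latter. Their part in the result was not tested. limma voom with sample quality weights called 0 of these genes at 3 months, where it called 3 of all 12429 genes tested. At an unadjusted p under 0.05 it had 64 of the 99 (64.7%) and 23.2% of all genes. With DESeq2 57 of the 99 passed, and 11.9% of all genes. The edgeR count was 27 without Co replicate 2, 26 without Co replicate 6 or 8 and 29 without Ta replicate 1. Calls over all genes fell as well. They numbered 365 without Co replicate 2 or 8, 380 without Co replicate 6 and 552 without Ta replicate 1, against 801 with all libraries. With replicate number as a block edgeR called 0 of the 99, and 0.00805% of all genes. At an unadjusted p under 0.05 that fit had 63 of the 99 (63.6%, against 28.7% of all genes).

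Co at 1 month showed the same unequal spread. Replicates 3 and 1 had means of 5.68 and 5.27 over the 100 genes, with 85 and 84 genes above every Ta library of 1 month. Replicate 2 followed at 3.83 with 49 genes, and the other 5 libraries had means of 2.17 to 3.37 with 2 to 25 genes. The count over all genes was not made here either. In group means 69.8% of all genes were higher with Co than with Ta at 1 month. The median difference from Ta was 0.63 over the 100 genes and 0.13 over all genes. At 6 months it was 0.08, with 65 of the 100 above 0, and -0.01 over all genes. Without Co replicate 1 of 6 months it was 0.03, with 54 above 0, and 0.09 over all genes.

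With 1, 3 and 6 months in 1 model, 47 of the 100 genes were higher with Co and 0 were lower, against 12.2% of 13916 genes tested (edgeR). ENSRNOG00000000655 had 3.83 ± 0.76 there as log2 fold change ± SE (adjusted p = 0.000401, edgeR) and ENSRNOG00000013220 had 3.27 ± 0.61 (adjusted p = 0.00018, edgeR). The latter had a median of 54.4 CPM with Co at 3 months against 2.83 CPM with Ta, of 24.3 CPM at 1 month against 2.43 CPM and of 2.28 CPM at 12 months against 1.01 CPM. Without the libraries of 3 months, a setting chosen after seeing the data, 0 of 99 genes passed with edgeR, where 1 of all 13010 genes tested did. At an unadjusted p under 0.05 that fit had 40 of the 99 (40.4%, against 13.9% of all genes). limma voom with sample quality weights called 5 with all 3 times, 4 of them higher, and 3.05% of all genes. With replicate number within each month as a block edgeR called 7, all higher, and 6.60% of all genes. At an unadjusted p under 0.05 that fit had 46 of the 100, against 27.9% of all genes.

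For the other metals few or no genes passed before 12 months. Ni against Ta over 1, 3 and 6 months gave 0 of 100 genes with edgeR, DESeq2 or limma voom with sample quality weights, with 5 (2.78% of all genes) at an unadjusted edgeR p under 0.05 and 0.00755% of all genes called. The median difference over the 100 was -0.03 and that over all genes 0.01. P gave 0 of 99 with edgeR, 18 of them (18.2%, against 16.2% of all genes) at an unadjusted p under 0.05, with 0.0151% of all genes called. DESeq2 called 5 (0.658% of all genes) and limma voom 1 (0.0605% of all genes), and edgeR called 1 without Ta replicate 4 of 6 months. The median difference with P was 0.0001 over the 100 and 0.0038 over all genes. DU gave 0 of 99, with 17 (17.2%, against 15.9% of all genes) at an unadjusted p under 0.05 and 0.569% of all genes called. DESeq2 called 2 (0.636% of all genes) and limma voom 0 (0.00748% of all genes). Without Ta replicate 4 or 7 of 6 months edgeR called 1. The median difference with DU was 0.0101 over the 100 and 0.015 over all genes. Without DU replicate 2 of 3 months edgeR also called 0 of the 100. By time, the median over the 100 genes ran from -0.16 at 3 months to 0.13 at 1 month with Ni, from -0.20 at 3 months to 0.18 at 1 month with P, and from -0.17 at 3 months (-0.23 without DU replicate 2) to 0.35 at 6 months with DU. At 6 months with DU 89 of the 100 were above Ta, where 77.0% of all genes were. These differences share the Ta libraries of each time, and whether Co differed from the other metals was not tested.

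The 3 metals of 12 months were compared with each other, a contrast the rule did not use although its libraries were the same. Since the rule takes the lowest of 3 differences, it favours genes in which the 3 are alike. P against Co gave 0 of 100 genes with edgeR (0.0572% of all genes called), 8 (8.93% of all genes) at an unadjusted p under 0.05, all higher with P. With DESeq2 2 passed (0.825% of all genes), and with weighted limma voom 3 (0.719% of all genes), all higher with P. At an unadjusted p under 0.05 DESeq2 had 16 of the 100, against 9.40% of all genes. Weighted limma voom had 45 of the 100 there, against 15.5% of all genes. DU against Co gave 0 of 99 with edgeR, DESeq2 or limma voom (0.0% of all with edgeR). At an unadjusted p under 0.05 edgeR had 8 (8.31% of all genes) and weighted limma voom 36 (36.4%, against 13.4% of all genes). DU against P gave 0 of 100 with the same 3 tools (0.0% of all with edgeR). At an unadjusted p under 0.05 edgeR had 5 (6.06% of all genes) and weighted limma voom 4 (2.80% of all genes). edgeR also called 0 in both without DU replicate 6. The median difference over the 100 genes was 0.12 for P above Co, 0.19 for DU above Co and 0.02 for DU above P. Over all genes it was -0.05, 0.10 and 0.14. The differences from Co were not computed without Co replicate 8. Without that library the Co mean over the 100 genes was 2.74, against 2.95 with it, 3.14 with P and 3.19 with DU. Without DU replicate 6, DU was above Co by 0.09 (0.05 over all genes), and DU minus P was -0.09 (0.10 over all genes), so the order of DU and P over the 100 genes rested on that library. These misses of the threshold do not show that the metals were alike.

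Changes within a metal are also given as descriptions. The median change from 6 to 12 months was 0.18 with P, -0.0035 with DU and -0.07 with Co, against -0.69 with Ta. Over all 14176 genes it was 0.04 with P, 0.09 with DU, 0.18 with Co and 0.06 with Ta. Without DU replicate 6 the DU change was -0.18 over the 100 genes, with 27 above 0, and 0.04 over all genes. From 3 to 12 months the change was 0.43 with P, 0.45 with DU (0.32 without replicate 6) and -0.69 with Ta. With Co it was -1.43, where 90 of the 100 were lower at 12 months. Over all genes it was 0.01 with P, 0.25 with DU (0.19 without replicate 6), -0.29 with Co and -0.06 with Ta. Of all genes 29.1% were higher in Co at 12 than at 3 months. From 1 to 12 months the change over the 100 genes was 0.04 with P and 0.31 with DU (0.19 without replicate 6). It was -0.59 with Co, where 81 were lower, against -0.72 with Ta. Over all genes it was -0.02 with P, 0.15 with DU (0.09 without replicate 6), -0.12 with Co and -0.06 with Ta. Of all genes 36.5% were higher in Co at 12 than at 1 month. Lower levels at 12 months than before were thus seen in Co as well as in Ta. Set against Ta of the earlier times, median differences at 12 months were 0.02 to 0.07 with Co and 0.21 to 0.29 with P. With DU they were 0.24 to 0.30 (0.10 to 0.19 without replicate 6). Over all genes they were 0.03 to 0.15 with Co and -0.03 to 0.11 with P. With DU they were 0.12 to 0.26 over all genes (0.06 to 0.21 without replicate 6). The Co changes and differences were not computed without Co replicate 8 of 12 months. Without that library the Co mean over the 100 genes was 2.74 ± 0.38 (SD, n = 7), against 2.95 with it. Ta at 1, 3 and 6 months had 2.90, 2.87 and 2.86, and Co at 6 months had 3.05 ± 0.22 (SD, n = 7). The Co values given here thus rested in part on 1 library.

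The earlier Ta groups were compared with each other. The rule used each of them, but only by its sign against Ta at 12 months. Between 1 and 6 months 5 of the 98 genes tested rose (4.11% of all genes tested) and 2 fell (5.73% of all) with edgeR. These counts were near or below the shares over all genes. The median difference was -0.03 over the 100 and -0.13 over all genes. ENSRNOG00000015957 ran from 1.36 to 3.32 CPM at 1 month (median 1.54) and from 1.94 to 9.39 CPM at 6 months (median 5.59), with 6 of 8 libraries above every library of 1 month, with 1.59 ± 0.32 as log2 fold change ± SE (adjusted p = 0.00951, edgeR). At 12 months its median was 0.857 CPM. ENSRNOG00000019648 ran from 40.3 to 69.4 CPM at 1 month (median 48.8) and from 9.91 to 43.5 CPM at 6 months (median 25.4), with 7 of 8 libraries below every library of 1 month, which gave -0.84 ± 0.19 as log2 fold change ± SE (adjusted p = 0.0151, edgeR). At 12 months its median was 16.2 CPM, where the rule required a mean below those of 1 and 6 months. Leaving out single libraries gave 5 to 12 genes in all, with 12 without Ta replicate 1 of 6 months. With weighted limma voom 10 of the 98 passed, where it called 18.05% of all genes. DESeq2 called 14 of the 98, and 17.38% of all genes.

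In Ni, where no library was used by the rule, 1 of 98 genes fell from 1 to 6 months with edgeR (2.11% of all genes tested fell). At an unadjusted p under 0.05 edgeR had 22 of the 98, all lower, against 21.95% of all genes in either direction. The median difference was -0.225 over the 100, with 79 lower. It was 0.03 over all genes, of which 54.15% were higher. Ni replicate 7 was the highest library of 1 month in 71 of the 100 genes, and its part was not tested. ENSRNOG00000020583 ran from 27.1 to 43.6 CPM at 1 month (median 32.6) and from 12.3 to 36.9 CPM at 6 months (median 21.5), with 6 of 8 libraries below every library of 1 month, with -0.72 ± 0.18 as log2 fold change ± SE (adjusted p = 0.0336, edgeR). The call was lost without Ni replicate 1, 3, 7 or 8 of 1 month or replicate 1, 2, 4, 6 or 8 of 6 months. In all 2 genes passed without replicate 6 of 1 month and 4 without replicate 3 of 6 months.

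Among the libraries of a group, the 100 genes were often high or low together. The mean correlation over all pairs of the 100 genes was 0.58 in Co at 3 months, 0.64 in Co at 1 month, 0.47 in Ni at 3 and at 6 months and 0.39 in Ni at 1 month (across 8 libraries each). Over all pairs of the 14176 genes it was 0.23, 0.25, 0.10, 0.05 and 0.18 there. With P it was 0.28 at 1 month, 0.18 at 3 months and 0.15 at 6 months, against 0.02, 0.13 and 0.10 over all genes. With DU it was 0.32, 0.12 and 0.23 at those times, against 0.07, 0.11 and 0.13. Without DU replicate 2 of 3 months it was 0.26 against 0.18. In Co at 6 months it was 0.17 against 0.29, and without Co replicate 1 it was 0.27 against 0.11. In Ta at 12 months it was 0.28 against 0.06. All these values share library depth and composition among genes. Single libraries also weigh on them. Ni replicate 7 of 1 month was the highest of its group in 71 of the 100 genes. Ni replicate 4 of 3 months and Co replicate 3 of 1 month were so in 69 each. The correlations were not computed without these libraries.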

How the data were processed

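The authors deposited whole-number counts per gene for each library. The submitters' processing notes name HISAT2 2.0.5, featureCounts 1.5.0-p3 and the build Rnor_6.0. Neither the strand setting nor the annotation release is given in the sources used here. Overlapping and near-identical genes may share reads. The 100 genes, the tests and the comparisons were chosen with earlier results of these data known. Gene lists by symbol could not be applied, because none of the identifiers matched a name in the reference table (assembly GRCr8). The rule for named genes took the highest scores, the largest called changes per test and the genes most like the list, and, without names, at most 2 identifiers per direction and comparison. The genes with the largest differences at 12 months were chosen after their values were seen.

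CPM used column totals and a pseudocount of 1. Tests used edgeR 4.0.16 (filterByExpr, TMM, robust dispersions, glmQLFit with robust=TRUE, glmQLFTest) on the libraries of each comparison, with month as a term where 3 times were joined, Benjamini-Hochberg adjustment over all genes tested and a threshold of 0.05. Each SE was taken as the absolute log2 fold change divided by the root of the F statistic. Alternatives used DESeq2 1.42.0 and limma 3.58.1 in R 4.3.3. The main fits did not pair libraries by replicate number. In 0 of 17 pairs of groups did all same-numbered libraries correlate above 0.1. This cannot exclude pairing, since 1 weak pair is enough to fail it, and for Co and Ta at 3 months 7 of 8 passed. No 2 libraries of a group matched within sampling noise (lowest chi-square per degree of freedom 8.66).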

Additional observations from a re-analysis of the deposited data

Results flagged for a closer look

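A library was singled out where its gap to the nearest other library, over the range of its group, passed Dixon's critical value. Single libraries stood apart from the rest of their group in 9 of the 57 groups of values looked at, which were the mean of the 100 genes and the 2 genes of highest score in each of the 19 groups. The rule flags about 1 group in 20 by chance where groups are independent, which these are not, since they share libraries and both genes are in the mean. The mean of the 100 genes on the log2(CPM + 1) scale was 4.15 in Ni replicate 7 of 1 month, with the other 7 libraries at 2.63 to 3.27, and 3.66 in Ni replicate 4 of 3 months, with the others at 2.36 to 2.97.

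ENSRNOG00000005825 stood at 8.54 in Ta replicate 5 of 1 month (others 3.72 to 4.99), 6.32 in Ni replicate 4 of 3 months (others 3.49 to 4.64) and 6.01 in P replicate 8 of 6 months (others 4.39 to 4.87). ENSRNOG00000003622 stood at 5.75 in Ta replicate 5 of 1 month (others 0.99 to 2.18), 4.86 in Ni replicate 7 of 1 month (others 1.32 to 2.94), 3.31 in Ni replicate 4 of 3 months (others 0.53 to 1.70) and 4.45 in DU replicate 2 of 3 months (others 1.32 to 2.47). DU replicate 2 of 3 months had a median correlation of 0.489 with its group. In each case the library was above the others.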

How the results depend on the processing

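With a pseudocount of 0.25 in place of 1 the rule chose 63 of the 100 genes again, and with group medians 54. TMM library sizes kept 88 and a minimum of 1 CPM kept 100. Leaving out single libraries kept 58 to 97. For Co over 1, 3 and 6 months, where edgeR called 47 genes, limma voom with sample quality weights called 5 and the replicate block 7. The fit without 3 months called 0, and 1 of all 13010 genes tested. Leave-one-out fits called 40 to 53. For Co at 3 months, with 44, limma voom called 0, the block 0 and leave-one-out fits 26 to 56. Over all genes these leave-one-out fits called 365 to 1534. From 0 calls, P over 1, 3 and 6 months went to 5 with DESeq2 and 1 with limma voom, DU to 2 with DESeq2, and both to 0 to 1 in leave-one-out fits. From 0 calls, P against Co at 12 months went to 2 with DESeq2 and 3 with limma voom. For Ta at 6 against 1 month, with 7 calls, DESeq2 called 14, the replicate block 0 and leave-one-out fits 5 to 12. For Ni at 6 against 1 month, with 1 call, the fit without a filter on low counts called 0, DESeq2 4, limma voom 2, the block 0 and leave-one-out fits 0 to 4. The causes were not tested. For Co and Ta at 3 months, 7 of 8 same-numbered pairs of libraries correlated above 0.1 and 4 of 8 libraries best with their own number, as a hint from the data only. In 0 of 17 pairs of groups did every library correlate best with its own number. Low counts limit the list: 23 of the 100 genes averaged under 1 CPM in Ta at 12 months.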

Other observations

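Genes outside the list shared its pattern. Over the 19 group means, the 5 genes most like the mean of the 100 had Pearson correlations of 0.95 to 0.96 with it, as a description over groups that share libraries and without a test. All 5 met the sign rule in Ta and scored 0.35 to 0.54, below the limit of the list. ENSRNOG00000058993 (r = 0.96) averaged 0.0916 ± 0.0939 CPM in Ta at 12 months and 2.97 ± 3.15 CPM in Co at 3 months (SD, n = 8 each). ENSRNOG00000010018 (r = 0.96) averaged 0.295 ± 0.206 and 18.4 ± 20.2 CPM there (SD, n = 8 each).

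With Co at 3 months 44 genes rose, and they and the 56 others were also set side by side at the other times, a division made after their values were seen. The median difference from Ta at 1 month with Co was 1.06 in the 44 and 0.36 in the 56. At 6 months the order was the other way, -0.02 and 0.15. At 12 months it was 0.70 and 0.77 with Co, 0.95 and 0.90 with P, and 0.98 and 0.87 with DU, where the rule fixed the sign.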
